A study of Mus musculus with 20 samples.

Results

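The genes described here encode axon guidance molecules of mouse flank tissue: semaphorins of classes 3 to 7, plexins, ephrins, Eph receptors, Slit ligands, Robo receptors, netrins and the Unc5 family. They were picked by a rule on gene names, as every gene whose symbol begins with one of those family names and that has a probe set annotated to a single symbol. The families themselves were chosen with earlier results of these data known. The name rule matched 67 genes, and 54 of them had a mean signal of at least 300 over the 19 assigned arrays, out of 13595 genes that passed the same minimum among 18194 with such a probe set. The 13 matched genes below the minimum were not tested. The lowest means inside it were 349.6 for Epha1, 380.3 for Unc5a and 423 for Robo3, and the highest outside it were 293.8 for Epha7, 284.6 for Sema5b and 281.9 for Epha5. Of the 54 tested genes, 49 had a mean of at least 300 in each of the 4 groups, and 2 (Ephb4 and Slit3) had a control mean below it, so these passed through the vector groups and had to differ from control. Epha1 averaged 323, 230, 135 and 686 in control and on days 5, 20 and 60, and Unc5a 346, 173, 331 and 629. Both passed the minimum through their day 60 arrays, so their differences between day 60 and other groups are a description with no test.

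Total RNA from flank tissue was hybridised to Affymetrix Mouse Genome 430 2.0 arrays in the Ad-VEGF-A164 flank model, in which an adenovirus delivers VEGF-A164, a secreted endothelial growth factor. Flank from the model was sampled at 4 times: control tissue at day 0 (5 arrays, A to E), day 5 (4 arrays, B to E), day 20 (5 arrays, A to E) and day 60 (5 arrays, A to E). The 20th array carried a day 5 title but a day 0 control source name and entered no comparison. The labels give no strain, sex or age and no empty-vector group, so effects of the virus, the injection and time cannot be told apart from those of the growth factor. Nor do they say that the arrays of a group came from separate animals, and the p-values measure the spread between arrays, which may be technical. Values after ± are SDs over the arrays of a group where they follow a signal, and SEs where they follow a log2 change; values per array are given in the order of the array letters.

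Guidance proteins steer growing axons, and blood vessels use the same families. Secreted class 3 semaphorins bind neuropilins, which signal through plexins, whereas Sema3e binds plexin D1 directly and the membrane-bound semaphorins bind plexins without neuropilins. Ephrins are ligands anchored in the membrane that signal through Eph receptors on the neighbouring cell, and ephrin-B2 on arterial and EphB4 on venous endothelium mark the 2 sides of the vascular tree. Slits bind Robo receptors, netrins bind Unc5 receptors, and Robo4 and Unc5b are the endothelial members of their families.

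Across the series, the probe set for Vegfa read between 3927 and 9410 on day 5 and between 7128 and 13514 on day 20, against 66.5 to 467 in control; on day 60 it read between 219 and 1076. The median signal of an array lay between 406 and 569. The ratio of 3′ to 5′ Actb probe sets, which rises as RNA is degraded, averaged 4.82 ± 1.96 on day 5, 4.48 ± 1.84 on day 20 and 8.82 ± 4.24 on day 60, against 7.10 ± 1.89 in control (SD, n = 4, 5, 5 and 5). Of 14 endothelial markers, 13 were called higher on day 5 and 13 on day 20, with summed signals of 108734 to 115059 and 87163 to 133350, against 31299.5 to 40149 in control; none was called on day 60, when the sum was 34892 to 64711. On day 5, 6 of 9 macrophage and 6 of 9 pericyte and smooth muscle markers were called higher, while all 6 adipocyte markers, 4 of 9 epithelial and epidermal markers, 5 of 7 fibroblast markers and 2 of 3 Schwann cell markers were called lower. On that day 1 macrophage marker was called lower and 1 fibroblast marker higher. On day 20, 8 of 9 pericyte and smooth muscle markers were called higher and 1 lower, 3 of 9 macrophage markers higher and 2 lower, and 1 of 7 fibroblast markers higher and 3 lower, while 6 of 6 adipocyte, 6 of 9 epithelial and epidermal and 1 of 3 Schwann cell markers were called lower. In whole tissue, fewer cells of a type and less RNA per cell cannot be told apart, and the part of these cell types in the results below was not tested.

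Guidance genes moved in both directions while the vector's growth factor was high, and none was called against control on day 60. On day 5, 12 of 54 were called higher (22.2%) and 9 lower (16.7%), against 16.8% higher and 17.5% lower among all 13595 tested genes (34.3% called in all). On day 20, 15 were called higher (27.8%) and 4 lower (7.41%), against 15.6% and 14.5% of all genes (30.1% in all). Among the 52 genes with a control mean of at least 300, which leaves out Ephb4 and Slit3, 10 were called higher (19.2%) and 9 lower (17.3%) on day 5, and 14 higher (26.9%) and 4 lower (7.69%) on day 20. The share called higher was therefore above that of all genes on day 20, the share called lower was below it on day 20, and on day 5 both were near it. On day 60 the counts were 0 higher and 0 lower, where 0.368% of all genes were called higher and 0.765% lower (1.13% in all); limma gave the guidance genes a median log2 change of 0.22 on that day, against 0.01 over all genes. On day 5 the median was −0.05, against −0.07 over all genes, and on day 20 it was −0.01, against −0.06. A call is an adjusted p under 0.05 from limma, with Benjamini-Hochberg adjustment over all 13595 genes, and every change is a difference of log2(signal + 100), a scale on which folds of low genes are understated.

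Counted by role, of 31 ligand genes (semaphorins, ephrins, Slits and netrins), 7 were called higher (22.6%) and 8 lower (25.8%) on day 5, where the shares of all genes were 16.8% and 17.5%, and 11 higher (35.5%) and 4 lower (12.9%) on day 20, where they were 15.6% and 14.5%. Of 23 receptor genes (plexins, Eph receptors, Robo and Unc5), 5 were called higher (21.7%) and 1 lower (4.35%) on day 5, and 4 higher (17.4%) and 0 lower on day 20; the higher counts include Slit3 among the ligands on both days and Ephb4 among the receptors on day 5. Whether the ligand and receptor counts differ was not tested. Without control D, day 20 A or day 20 E the 4 genes called lower on day 20 became 2.

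**Figure D1:**
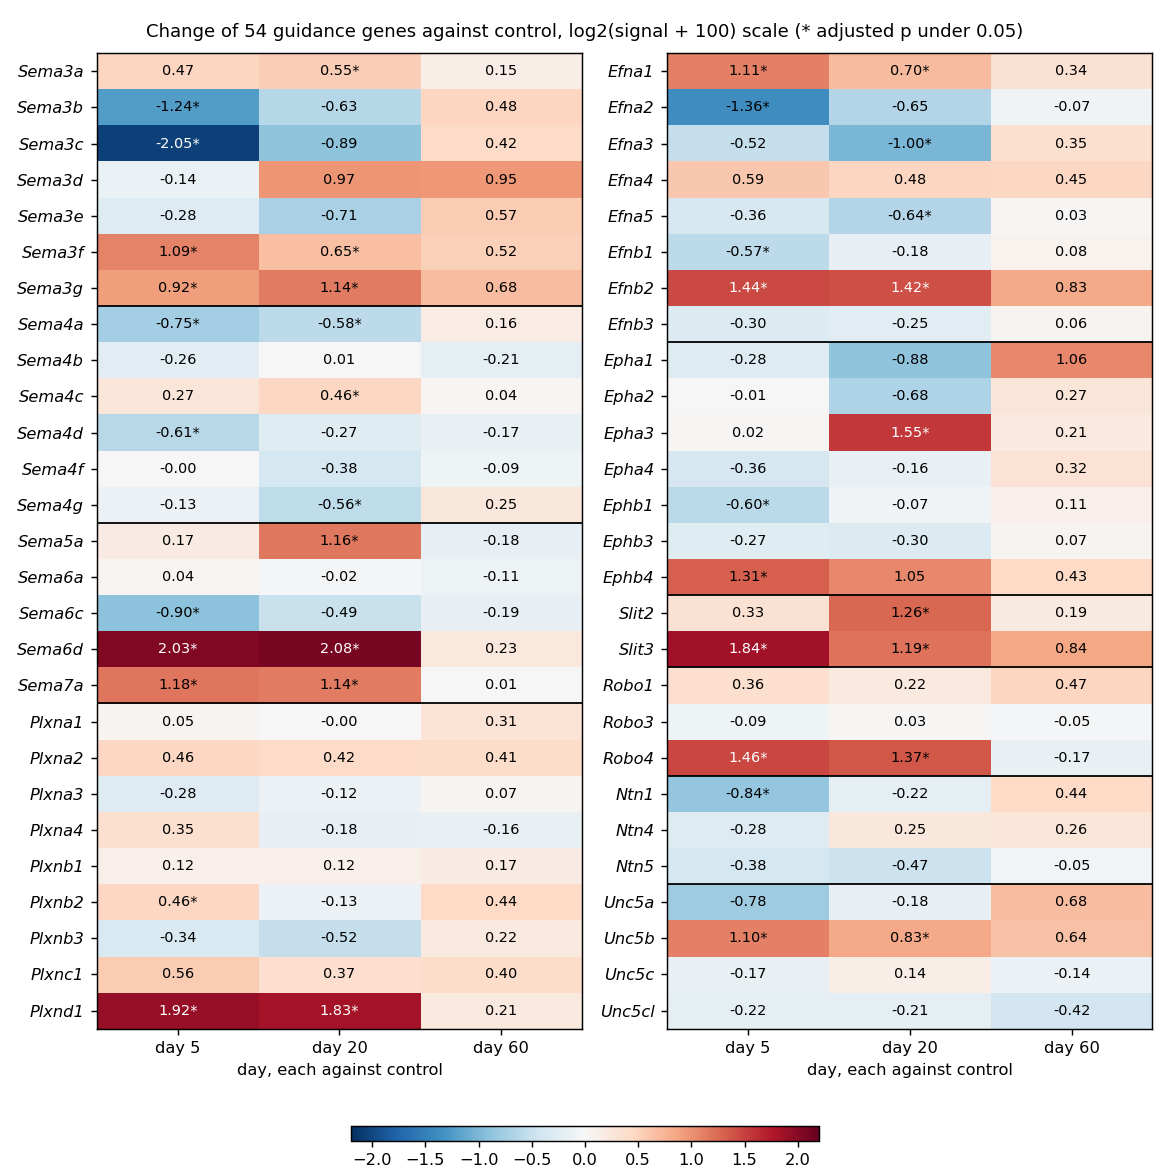
Log2 change of each of the 54 tested guidance genes on day 5, day 20 and day 60 (columns), each against control, on the log2(signal + 100) scale; black lines separate families and an asterisk marks an adjusted p under 0.05. Sema6d, Plxnd1, Slit3, Robo4 and Efnb2 are the deepest red on day 5, Sema3c (−2.05) is the deepest blue, and the day 60 column holds no asterisk. The asterisks of Slit3 and Ephb4 are no test result, because both passed the minimum signal only through the vector groups.

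**Figure D2:**
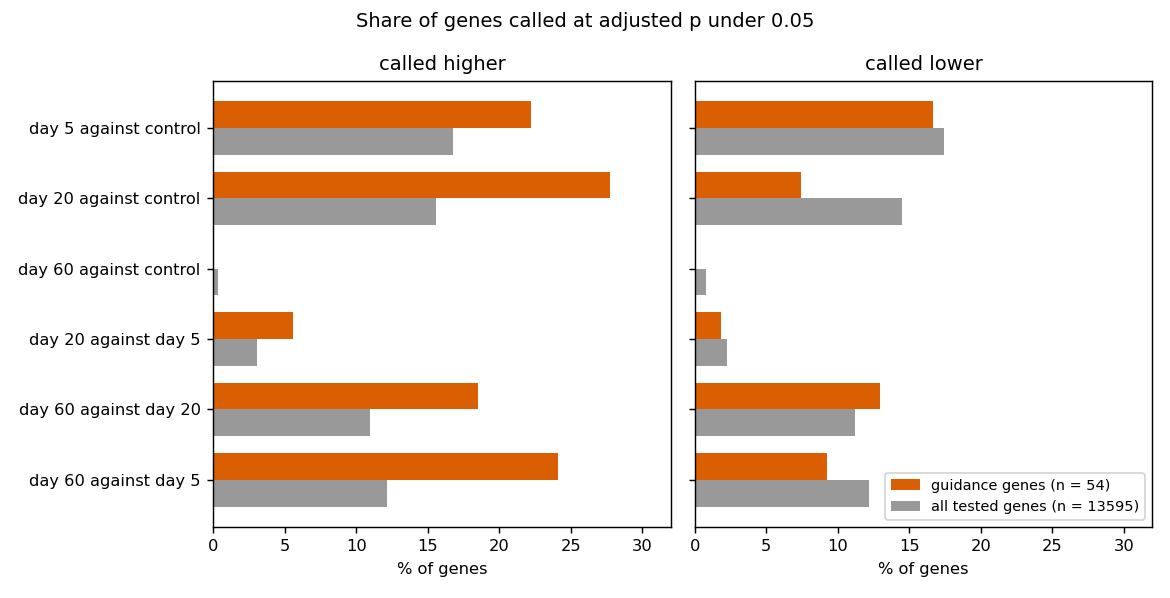
Percentage of the 54 guidance genes and of all 13595 tested genes called higher (left) or lower (right) at an adjusted p under 0.05 in each of 6 comparisons. On day 20 against control 27.8% of guidance genes were called higher, against 15.6% of all genes, and 7.41% were called lower, against 14.5%.

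Plxnd1, Robo4, Efnb2 and Unc5b belong to 4 different families and were called higher on both day 5 and day 20. On day 60 Plxnd1 and Robo4 were called lower than on day 20, whereas Efnb2 and Unc5b were not called in that comparison. The sequences just upstream of these 4 genes are shown here. Each is 300 bases of the RefSeq promoter table on GRCm38.p6, running 5′ to 3′ on the gene's strand from 250 bases before the transcription start to 50 after it, with capitals marking motif matches. The windows are chr6:115994956-115995255 (minus strand) for Plxnd1, chr9:37401722-37402021 (plus strand) for Robo4, chr8:8661193-8661492 (minus strand) for Efnb2 and chr10:60831532-60831831 (minus strand) for Unc5b.
Plxnd1: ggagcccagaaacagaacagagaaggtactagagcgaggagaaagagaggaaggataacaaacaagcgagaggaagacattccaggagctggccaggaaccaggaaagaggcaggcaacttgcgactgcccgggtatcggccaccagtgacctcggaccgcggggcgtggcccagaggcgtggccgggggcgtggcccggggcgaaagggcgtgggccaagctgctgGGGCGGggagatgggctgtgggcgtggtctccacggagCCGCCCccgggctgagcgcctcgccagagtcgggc
Robo4: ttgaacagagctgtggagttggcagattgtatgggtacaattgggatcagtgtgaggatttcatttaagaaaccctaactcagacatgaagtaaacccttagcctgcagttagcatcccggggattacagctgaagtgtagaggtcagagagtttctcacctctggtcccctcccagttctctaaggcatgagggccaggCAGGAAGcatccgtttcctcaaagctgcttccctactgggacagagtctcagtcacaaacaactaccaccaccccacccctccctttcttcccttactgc
Efnb2: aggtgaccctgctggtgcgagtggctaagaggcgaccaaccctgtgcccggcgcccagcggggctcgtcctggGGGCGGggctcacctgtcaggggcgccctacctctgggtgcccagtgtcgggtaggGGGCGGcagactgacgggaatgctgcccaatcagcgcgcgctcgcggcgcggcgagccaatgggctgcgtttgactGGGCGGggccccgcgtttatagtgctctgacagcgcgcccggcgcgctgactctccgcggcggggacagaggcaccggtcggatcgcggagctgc
Unc5b: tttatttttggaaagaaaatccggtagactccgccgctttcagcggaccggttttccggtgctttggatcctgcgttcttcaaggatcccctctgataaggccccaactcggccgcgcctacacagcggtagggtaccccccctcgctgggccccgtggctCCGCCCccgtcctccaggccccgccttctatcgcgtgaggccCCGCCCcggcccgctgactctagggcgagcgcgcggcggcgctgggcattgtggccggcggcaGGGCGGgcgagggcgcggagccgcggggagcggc
The letters searched on both strands were GGGCGG (the GC box bound by Sp1), CCGGAAG and CAGGAAG (ETS-type) and GTAAACA (forkhead-type), and no pair of matches overlapped in these 4 windows. Plxnd1 had 2 GC boxes, Efnb2 3 and Unc5b 3, whereas Robo4 had none of them and 1 CAGGAAG. The same contrast was present in base composition: the Robo4 window was 50.3% G and C with 2 CpG dinucleotides, while Plxnd1, Efnb2 and Unc5b were 67.0%, 72.3% and 69.7% G and C with 23, 35 and 36 CpG. Promoter entries were found for 47 of the 54 genes, giving 59 windows, of which 42 (71.2%) held a GC box, against 35.7% of all 32851 windows in the table. The median window had 18 CpG in guidance genes and 7 over all. The whole table was not limited to genes that passed the signal minimum, as the guidance genes were, so these values compare unlike sets. Of those 59 windows, 8 held CAGGAAG (13.6%, against 13.3% of all), 1 held CCGGAAG (against 8.86%) and 0 held GTAAACA (against 3.65%). These matches describe letters in a window and nothing about which factors bind there.

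Among the semaphorins, Sema6d, Sema7a, Sema3f and Sema3g were called higher on both day 5 and day 20, Sema3a, Sema4c and Sema5a on day 20, and Sema4a was called lower on both days. Sema3c, Sema3b, Sema4d and Sema6c were called lower on day 5, and Sema4g was called lower on day 20. Of the 18 tested semaphorins, Sema3d, Sema4b, Sema4f and Sema6a were called in none of the 6 comparisons, and Sema3e was called on day 60 against day 20.

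The membrane-bound Sema6d, a ligand of plexin A1, had the largest change of all 54 genes on day 20. Its signal was 17580.5, 21125, 23919 and 25896 on the day 5 arrays and 19433, 22210.3, 23242, 18078 and 33576 on the day 20 arrays, against 4812, 4482, 5500.3, 5910.4 and 5918 on the control arrays. Every day 5 and day 20 array lay above every control array. The log2 change was 2.03 ± 0.17 (SE) on day 5, 4.08-fold with adjusted p = 1e-07, and 2.08 ± 0.16 on day 20, 4.24-fold with adjusted p = 3.44e-08. By day 60 the arrays read 8077, 6345, 4938, 5803 and 6439, and the change against control was 0.23 (adjusted p = 0.501). This result belongs to 1 of 4 Sema6d probe sets: the other 3, whose means were far lower, gave 0.47, 0.27 and -0.04 on day 5, none of them called, and 0.35, 0.08 and 1.12 on day 20, the last of these called (adjusted p = 0.0276).

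Sema7a, anchored in the membrane by a lipid and known as a ligand of plexin C1 and of integrins, had 3356, 4624, 3680.2 and 4342 on day 5 and 4649, 4172, 4024, 3645 and 2969 on day 20, against 1635, 1672, 1385, 1858 and 1958 in control. Neither vector group overlapped with control. The day 5 change of 1.18 ± 0.22 was 2.27-fold (adjusted p = 0.000328) and the day 20 change of 1.14 ± 0.20 was 2.21-fold (adjusted p = 0.000314). The day 60 arrays ran from 958 to 2867, on both sides of the control range.

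Class 3 semaphorins, the secreted ligands of neuropilins, split. Sema3g, a ligand of neuropilin 2, had 1814, 1862, 1399 and 1971 on day 5 and 2099, 1785, 1744, 1785 and 3144 on day 20, against 1008, 813, 787, 901 and 902 in control. Neither vector group overlapped with control, and day 20 E stood above the other day 20 arrays. The changes were 0.92 ± 0.21 (adjusted p = 0.00272) and 1.14 ± 0.20 (adjusted p = 0.000288). On day 60 the mean was 1548 ± 551 (SD, n = 5), and the log2 difference of 0.68 from control missed the threshold (adjusted p = 0.096).

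Sema3f, another neuropilin 2 ligand, averaged 4723 ± 1378 on day 5 (n = 4) and 3511 ± 1179 on day 20 (n = 5), against 2145 ± 499 in control (SD, n = 5). Its change was 1.09 ± 0.26 on day 5 (adjusted p = 0.003), with no overlap between arrays, and 0.65 ± 0.24 on day 20 (adjusted p = 0.0484), with overlap. The day 20 call did not survive the omission of control A, B, D or E, day 5 C or E, day 20 A, B, C or E, or day 60 A, C or D, which gave adjusted p-values of 0.0516 to 0.132. A dimmer second probe set of the gene gave 2.08 and 1.78 on the same days, both called. Sema3a, a neuropilin 1 ligand that repels axons, averaged 1371 ± 162 on day 20, against 908 ± 146 in control (SD, n = 5 each), a change of 0.55 (adjusted p = 0.0389) that was lost without control A, B, D or E or without day 20 B, C, D or E (adjusted p = 0.0514 to 0.0918).

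Sema3c moved the other way and had the largest fall. Its signal was 2927, 3081, 4090.0 and 3274 on day 5, against 8501, 15431, 19493, 14937 and 14156 in control. The highest day 5 array was below the lowest control array, control A, and the change of -2.05 ± 0.36 was a 4.13-fold fall (adjusted p = 0.000232). On day 20 the arrays read 8237, 6197, 6759, 8270.3 and 8526, a log2 difference of -0.89 from control that missed the threshold (adjusted p = 0.0552). The day 20 value was called without control A or without day 60 A, B or E (adjusted p = 0.0322, 0.0458, 0.0105 and 0.0286). On day 60 its arrays read 32699, 6679.8, 15145, 16894 and 41649.9, the widest spread of any group of this gene. A second Sema3c probe set, with means of 462 on day 5 and 547 in control, gave a log2 difference of -0.17 (adjusted p = 0.683), so the fall rests on the brighter probe set.

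Sema3b, known as a candidate tumour suppressor, averaged 178 ± 115 on day 5, against 554 ± 239 in control, with control A inside the day 5 range. The change was -1.24 ± 0.34 (adjusted p = 0.00913). Sema3e, the direct ligand of plexin D1, was not called against control on any day: it averaged 951 ± 219 on day 5, 774 ± 462 on day 20 and 1996 ± 1205 on day 60, against 1341 ± 899 in control, and control B alone read 2779. Its log2 differences from control on days 5, 20 and 60 were -0.28, -0.71 and 0.57, with adjusted p-values of 0.673, 0.226 and 0.533.

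Of the 6 class 4 semaphorins tested, which span the membrane, 0 were called higher and 2 lower on day 5, and 1 higher and 2 lower on day 20. Of all genes, 16.8% were called higher and 17.5% lower on day 5, and 15.6% and 14.5% on day 20. Counts out of 6 genes cannot tell this family from all genes. Sema4d, a ligand of plexin B1 and of CD72 on lymphocytes, had 1510.1, 1517, 1445 and 1270.2 on day 5, against 2269, 2129, 2582, 2208 and 2025 in control, with no overlap. The change of -0.61 ± 0.12 was called (adjusted p = 0.000646), and a second probe set gave -1.02 (adjusted p = 0.00876). On day 20 the mean was 1841 ± 131 (SD, n = 5) and the log2 difference -0.27 (adjusted p = 0.0788), called without day 60 A (0.0497). Sema4a, known for its part in T cell priming, had 3786, 2966, 4006 and 3101 on day 5 and 3761, 4508, 4687, 3970.2 and 2791 on day 20, against 5158, 6511, 6798, 6155 and 4913 in control. Both vector groups lay below control without overlap, with changes of -0.75 ± 0.22 (adjusted p = 0.0128) and -0.58 ± 0.21 (adjusted p = 0.0409). The day 20 call was lost without control B, C or D or day 20 A, D or E (adjusted p = 0.0619 to 0.11), and also with each array centred on its 75th percentile (0.0613). Averaging the Sema4a probe sets ended both calls (adjusted p = 0.156 on day 5 and 0.126 on day 20).

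Sema4g changed by -0.56 (adjusted p = 0.0274) on day 20, with means of 505 ± 122 against 783 ± 99.7 in control (SD, n = 5 each), and lost the call without control A or D or day 20 A, B or E (adjusted p = 0.0537 to 0.0687). Sema4c, a ligand of plexin B2, changed by 0.46 (adjusted p = 0.0331) on that day, lost without control B, C or D or day 20 A, B, C or E (adjusted p = 0.0559 to 0.0875).

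Sema6c averaged 1040.0 ± 243 on day 5 (n = 4), against 2095 ± 659.6 in control (SD, n = 5), a change of -0.90 ± 0.24 (adjusted p = 0.00736). Control B, at 942, was the one control array inside the day 5 range. Sema5a, which carries thrombospondin repeats in its extracellular part, had a day 20 pattern. It read 1625, 2310.3, 2063, 2146 and 2693 on day 20, against 910.2, 1023, 706, 952 and 952 in control and 580.4, 1336, 1067 and 1333 on day 5. The day 20 arrays lay above all arrays of the other 2 groups, with changes of 1.16 ± 0.20 against control (adjusted p = 0.00021) and 0.99 ± 0.21 against day 5 (adjusted p = 0.00888). Its second probe set at or above the minimum changed by 1.01 against control on day 20 (adjusted p = 0.000387). The call of day 20 against day 5 was lost when all 4 Sema5a probe sets were averaged (adjusted p = 0.0855). Only 2 of these reached the minimum signal.

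Of the 9 plexins, the semaphorin receptors, Plxnd1 was called higher on both days, Plxnb2 on day 5, and the remaining 7 in no comparison. Plxnd1, the plexin of endothelial cells, had 6580.0, 6319, 8370.1 and 8229 on day 5 and 6172, 6255, 7386, 6183 and 8828 on day 20, against 1965, 1142, 1849, 2031 and 2621 in control. The lowest array of those days, day 20 A at 6172, stood far above the highest control array, control E at 2621. The changes were 1.92 ± 0.21, 3.78-fold (adjusted p = 1.79e-06), and 1.83 ± 0.20, 3.57-fold (adjusted p = 1.66e-06). On day 60 the arrays read 2796, 2984, 1616, 2241 and 1591, a log2 difference of 0.21 (adjusted p = 0.628) from control.

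Plxnb2 averaged 3063 ± 514 on day 5, against 2183 ± 286 in control, a change of 0.46 (adjusted p = 0.0388) with overlapping arrays. The call was lost without control C, D or E or day 5 C, D or E (adjusted p = 0.0711 to 0.117). Among the plexins that were not called, Plxna2 had log2 differences from control of 0.46 (adjusted p = 0.069) on day 5 and 0.42 (adjusted p = 0.0813) on day 20. It was called on day 5 without control B (0.031) or day 5 B (0.0353), and on day 20 without control B (0.0372) or day 20 B (0.0334). Plxnc1, the receptor of Sema7a, had differences of 0.56 (adjusted p = 0.0869) and 0.37 (adjusted p = 0.247), and both were called without day 20 E (0.0443 and 0.0464). One of the 3 other Plxna2 probe sets was called on both days (0.67 and 0.62), and so was the second Plxnc1 probe set on day 5 (0.81). For Plxna1, the receptor of Sema6d, the 95% intervals of the log2 difference from control were -0.25 to 0.35 on day 5 and -0.28 to 0.28 on day 20, and for Plxnb1, the receptor of Sema4d, they were -0.24 to 0.47 and -0.22 to 0.45.

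The neuropilins, which are no members of the named families but hold the class 3 ligands, were both among the co-receptors called higher on day 20. Nrp1 averaged 44104 ± 2053 on day 5 and 54028 ± 7117 on day 20, against 23798 ± 3633 in control, with changes of 0.90 and 1.18 (adjusted p = 0.00018 and 5.62e-06). For Nrp2 the log2 differences were 0.34, 0.76 and 0.74 on days 5, 20 and 60, called on the last 2 of these (adjusted p = 0.07, 0.000261 and 0.0159).

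**Figure D3:**
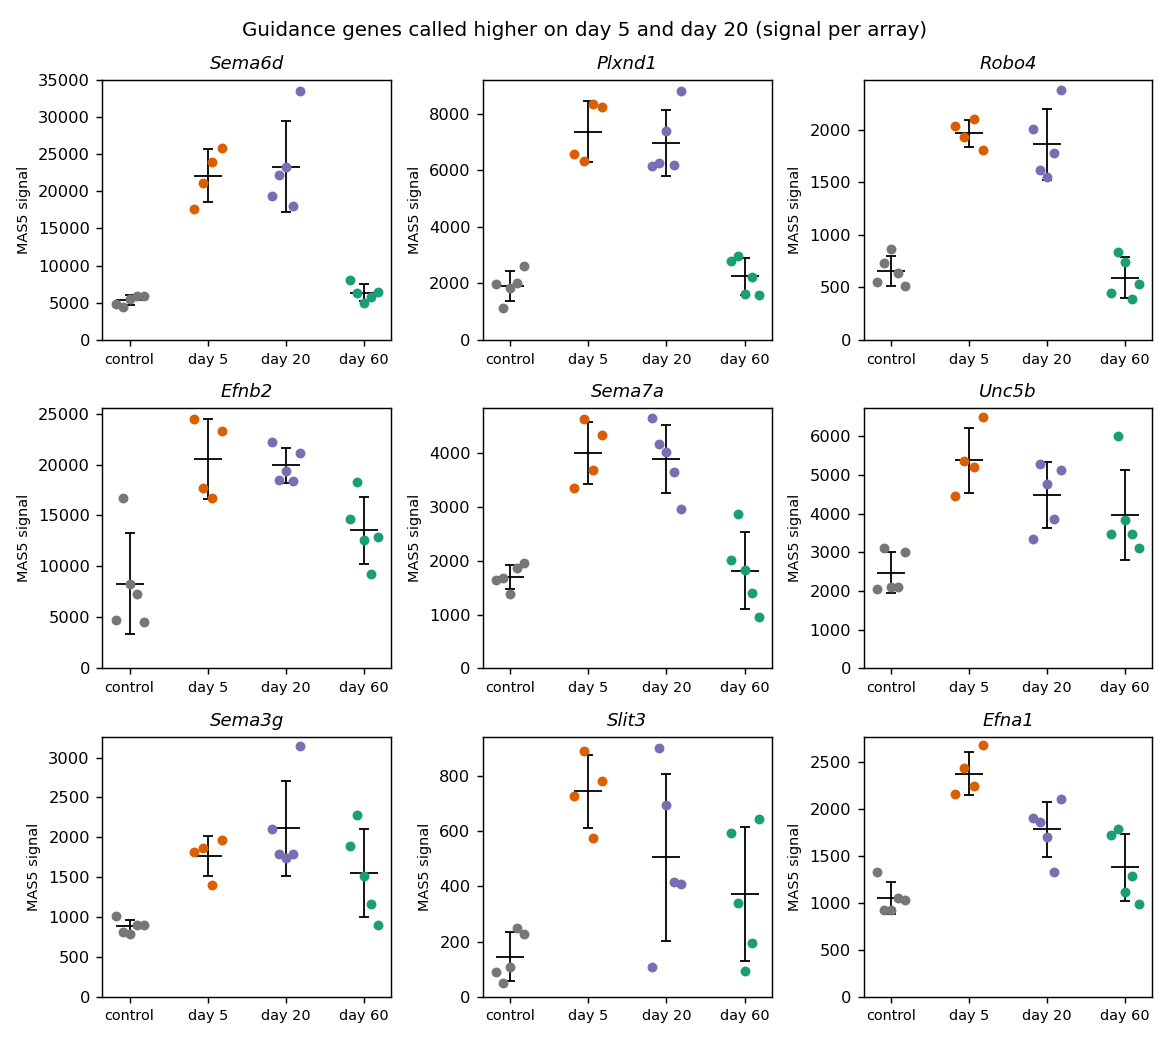
MAS5 signal of 9 guidance genes called higher on day 5 and day 20, per array (points), with the group mean and SD (bars), in control, day 5, day 20 and day 60. Slit3 passed the minimum signal only through the vector groups and is shown as a description with no test. For Sema6d, Plxnd1, Robo4, Efnb2, Sema7a, Unc5b and Sema3g all day 5 and day 20 arrays lie above all control arrays; for Slit3 and Efna1 day 20 overlaps with control.

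Of the 8 ephrins, Efnb2 and Efna1 were called higher on both days, Efna2 and Efnb1 lower on day 5, and Efna3 and Efna5 lower on day 20. Efnb2, the arterial ligand of EphB4, was among the brighter guidance genes. It had 24474, 17684, 16748 and 23254 on day 5 and 22206, 18462, 19408, 18398 and 21146 on day 20, against 4768, 16674, 8272, 7309.6 and 4525 in control. Control B stood far above the other controls, just below the lowest day 5 array, and the groups did not overlap. The changes were 1.44 ± 0.28, 2.72-fold (adjusted p = 0.000506), and 1.42 ± 0.26, 2.67-fold (adjusted p = 0.000414). On day 60 the arrays read 14636, 18297, 12624, 9304 and 12867, and the log2 difference of 0.83 (adjusted p = 0.111) from control was called without control B (adjusted p = 0.00621). A second Efnb2 probe set gave 1.24 and 0.99 on days 5 and 20, both called.

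Efna1, a ligand of EphA2 that is induced by inflammatory cytokines in endothelium, had 2161, 2437, 2245 and 2685 on day 5 and 1906, 1869, 1709, 1332 and 2113 on day 20, against 1334, 926, 925, 1053 and 1038 in control. Day 5 did not overlap with control, and day 20 D read 1332, just under control A at 1334. The changes were 1.11 ± 0.17 (adjusted p = 5.71e-05) and 0.70 ± 0.16 (adjusted p = 0.00247).

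Efna2, Efna3 and Efna5 were each called lower on 1 of the days. Efna2 averaged 344 ± 297 on day 5, against 913 ± 254 in control, with overlapping arrays and a change of -1.36 ± 0.39 (adjusted p = 0.0118, and 0.0524 without day 5 B). Efna3 had 1104, 361, 1035, 653 and 525 on day 20, against 1086, 2534, 1601, 1646 and 936 in control, with overlapping arrays and a 2.01-fold fall (adjusted p = 0.0108). Efna5, a high-affinity ligand of EphA3, averaged 1767 ± 483 on day 20, against 2778 ± 493 in control (SD, n = 5 each), a change of -0.64 (adjusted p = 0.00719). Efnb1 changed by -0.57 (adjusted p = 0.0311) on day 5 and lost the call without control A, C or D or day 5 C or E (adjusted p = 0.0502 to 0.107). On day 20 the falls of Efna3 and Efna5 stood beside summed epithelial and epidermal marker signals of 5579 to 57608, against 60679 to 103888 in control. Summed adipocyte marker signals were 3829 to 8055 on that day, against 56984 to 152064 in control. Other cell type lists moved too, in both directions, and the part of any cell type in these falls was not tested.

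Of the 7 tested Eph receptors, Epha3 was called higher on day 20 and Ephb1 lower on day 5. Ephb4, which passed the minimum only through the vector groups, was called higher on day 5. Epha1, which passed it only through day 60, was called between times but not against control. Epha3, a receptor of ephrin-A5 found on mesenchymal cells, had 2322, 6500.1, 3951, 2684 and 1981 on day 20, against 821, 1089.5, 1276, 1153 and 819.6 in control and 1669, 1028, 696 and 945 on day 5. All day 20 arrays lay above the arrays of both other groups, and day 20 B was the highest by a wide margin. The changes were 1.55 ± 0.29, 2.93-fold, against control (adjusted p = 0.000548) and 1.53 ± 0.31 against day 5 (adjusted p = 0.00668). A second Epha3 probe set changed by 1.71 against control on day 20 (adjusted p = 0.000161). The summed signal of the pericyte and smooth muscle markers was 292947 to 358199 on day 20, against 88139.9 to 111966 in control. On day 5 the patterns differed: that sum was already 146759 to 196618, while Epha3 averaged 1085 ± 414, against 1032 ± 204 in control. The part of these markers in the Epha3 result was not tested.

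Ephb4, the venous receptor of ephrin-B2, was dim in control. It had 594, 573, 713 and 677 on day 5 and 127, 627, 898, 470.1 and 839.8 on day 20, against 56.4, 111, 319, 239.9 and 392 in control, where several arrays read close to the added 100. Day 5 lay above control without overlap, and day 20 A fell within the control range. The log2 differences from control were 1.31 ± 0.45 on day 5 and 1.05 ± 0.43 on day 20. They are given as a description with no test, since the minimum signal admitted Ephb4 through the groups where it was high, and the day 5 call was lost without control A or B or any single day 5 array. Ephb1 changed by -0.60 (adjusted p = 0.0157) on day 5, and by an amount that missed the threshold without day 5 D (adjusted p = 0.0644). Epha2, the receptor of ephrin-A1, was not called: its arrays ran from 470.1 to 2487 on day 5, a spread wider than its control range of 1199.9 to 1786.

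In the Slit and Robo families, Robo4 was called higher on both days and Slit2 on day 20, Slit3 passed the minimum only through the vector groups, and Robo1 and Robo3 were called in no comparison. Robo4, the endothelial Robo, had 2038, 1931, 2105 and 1811 on day 5 and 2007, 1614, 1549, 1778 and 2379.7 on day 20, against 553, 729, 867, 634 and 516 in control. The groups were far apart, and on day 60 the arrays, at 445, 839, 747, 387 and 532, lay within or just below the control range. The changes were 1.46 ± 0.19, 2.76-fold (adjusted p = 1.01e-05), and 1.37 ± 0.18, 2.59-fold (adjusted p = 1.02e-05).

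The ligand Slit2 had 6946, 6657, 2933 and 5385 on day 5 and 7205, 16174, 12294, 9369.8 and 7337 on day 20, against 2978, 3639.9, 5734, 4503 and 4215 in control. Day 20 lay above control without overlap, with a change of 1.26 ± 0.26, 2.39-fold (adjusted p = 0.00123), while day 5 overlapped with control and differed from it by 0.33 (adjusted p = 0.381). The test of day 20 against day 5 gave 0.93 (adjusted p = 0.0588), called without day 60 B (0.0489), and a second, dimmer Slit2 probe set gave 0.30 on day 20 (adjusted p = 0.488). Slit3 had 727, 890.3, 575 and 781 on day 5 and 109, 899, 694, 416 and 407 on day 20, against 91.4, 51.7, 109, 249 and 228 in control. Day 20 A, at 109, was at the control level. The log2 differences of 1.84 ± 0.42 and 1.19 ± 0.40 are likewise a description with no test, and the day 20 call was lost without control A, B or C or day 20 B or C. Robo1, the receptor of both Slits on many cell types, had log2 differences of 0.36 and 0.22, with 95% intervals of -0.32 to 1.04 and -0.43 to 0.86; a dimmer second probe set gave 0.97 and 0.92, both called.

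Among netrins and Unc5 genes, Unc5b was called higher on both days and Ntn1 lower on day 5. Unc5b, the endothelial netrin receptor, had 4463, 5364, 5195 and 6496 on day 5 and 3331, 5293, 4765, 3862 and 5134 on day 20, against 2057, 3104, 2096, 2111 and 3014 in control. Neither vector group overlapped with control, and the changes were 1.10 ± 0.19 (adjusted p = 0.000225) and 0.83 ± 0.18 (adjusted p = 0.00184). On day 60 the log2 difference was 0.64 (adjusted p = 0.0869), called without control B (adjusted p = 0.0365); the second probe set read 1113 on day 60, against 1199 in control. Ntn1, the secreted ligand, had 1379, 1045, 1354 and 1365 on day 5, against 2782, 2052, 2410.2, 2031 and 2688 in control, with no overlap. The change of -0.84 ± 0.18 was a 1.79-fold fall (adjusted p = 0.00111), and the log2 difference on day 20 was -0.22 (adjusted p = 0.341). Ntn4, a netrin of vascular basement membranes, averaged 4114 ± 790.1 on day 5 and 5974 ± 995 on day 20, against 4966 ± 409.5 in control, and was not called. Unc5cl was caught by the name rule although it is not a netrin receptor, and it was not called.

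**Figure D4:**
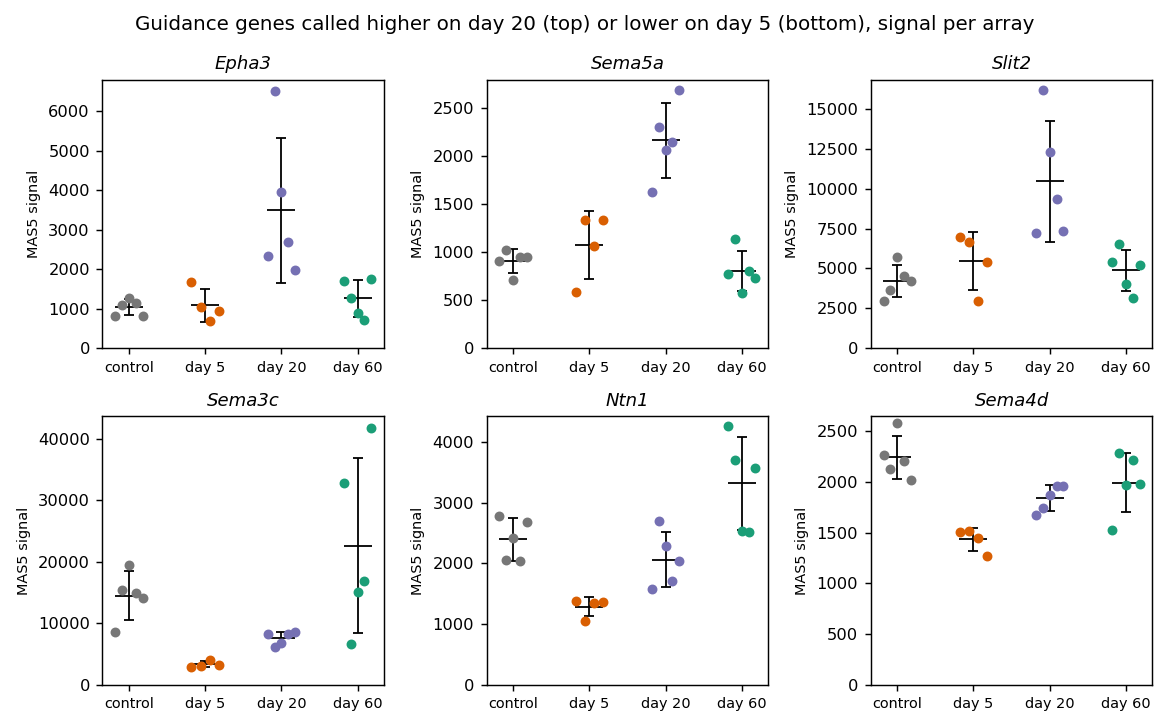
MAS5 signal per array (points) with the group mean and SD (bars) for 3 genes called higher on day 20 but not on day 5 (Epha3, Sema5a and Slit2) and 3 called lower on day 5 (Sema3c, Ntn1 and Sema4d). The Epha3, Sema5a and Slit2 arrays of day 20 all lie above the arrays of the other groups, and the Sema3c day 60 arrays span 6679.8 to 41649.9.

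By day 60 the signals of several risers were again near control. In the test of day 60 against day 20, 10 of 54 guidance genes were called higher and 7 lower, where 11% of all genes were called higher and 11.2% lower (22.1% in all). The 7 lower were Sema6d, Plxnd1, Robo4, Sema7a, Epha3, Sema5a and Slit2, each of which had been called higher on day 20. Sema6d changed by -1.85 ± 0.16 (adjusted p = 1.94e-07), Plxnd1 by -1.62 ± 0.20 (adjusted p = 1.02e-05) and Robo4 by -1.54 ± 0.18 (adjusted p = 5.01e-06), none with overlapping arrays. Efnb2, Unc5b and Sema3g were not called between day 60 and day 20, with log2 differences of -0.58, -0.19 and -0.46 (adjusted p = 0.118, 0.507 and 0.115). Without control B the Efnb2 difference was called (0.0283), and without day 60 B that of Sema3g was (0.0322). For Unc5b the result rests on the brighter probe set: with both averaged, the change was -0.70 and was called (0.00336). Of the 14 endothelial markers, 11 were called lower on day 60 than on day 20, and their part in these falls was not tested.

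The 10 genes higher on day 60 than on day 20 were Epha1, Efna3, Efna5, Sema3b, Sema3c, Sema3e, Sema4a, Sema4g, Ntn1 and Plxnb2. Epha1, a receptor of epithelial cells, averaged 686 ± 189 on day 60, against 135 ± 156 on day 20, a log2 difference of 1.94 with no overlap. It passed the minimum only through its day 60 arrays, so this difference is a description with no test, although the count of 10 includes it. Efna3 averaged 2001 ± 755 on day 60, against 736 ± 323 on day 20, also without overlap, a change of 1.36 (adjusted p = 0.00169). In the same comparison 7 of 9 epithelial and epidermal markers and 6 of 6 adipocyte markers were called higher, and their part in these rises was not tested. The Sema3e call was lost without day 20 B or E or day 60 A, C, D or E (adjusted p = 0.0554 to 0.117), and that of Sema3b without day 20 B (0.054). Averaging all probe sets of a gene, also any below the minimum signal, ended the calls of Efna5 (0.566), Ntn1 (0.211), Sema4a (0.0739) and Sema3c (0.0509). The Actb ratio as a covariate ended those of Ntn1 (0.0768) and Plxnb2 (0.0831).

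In the test of day 60 against day 5, 13 genes were called higher and 5 lower, where 12.2% of all genes were called higher and 12.2% lower (24.4% in all). Sema3c had the largest rise, 2.47 ± 0.36 or 5.53-fold (adjusted p = 6.61e-05), followed by Sema3b at 1.72 ± 0.34 (adjusted p = 0.00122). The other genes called higher were Efna2, Efna3, Efnb1, Epha1, Ephb1, Ntn1, Ntn4, Sema4a, Sema4d, Sema6c and Unc5a, and the 5 lower were Sema6d, Plxnd1, Robo4, Sema7a and Efna1. Epha1 and Unc5a are included in the count of 13 but passed the minimum only through day 60, so their rises are a description with no test. Several of the rises were lost when 1 array was left out: Efna2 without day 5 B or E or day 60 B or C, Efna3 and Sema6c without day 5 B, C or D or day 60 B, C or D, and Epha1 without day 5 B, C or E or day 60 B, D or E. Ntn4 was lost without day 5 B or D or day 60 A or C, and Efnb1 without day 5 C or E. The adjusted p-values were then 0.0506 to 0.0905 for Efna2, 0.0542 to 0.0916 for Efna3, 0.0647 to 0.125 for Sema6c, 0.0507 to 0.079 for Ntn4 and 0.0613 to 0.0742 for Efnb1. Averaging all probe sets of a gene, also any below the minimum signal, ended the calls of Sema4a (0.0972), Sema4d (0.0574), Sema6c (0.0777) and Ntn4 (0.25). The Actb ratio, which was highest on day 60, ended as a covariate those of Sema6c (0.205), Efnb1 (0.0518) and Ntn4 (0.0867). With the 3 day 60 arrays of highest Actb ratio (A, B and D) left out together, the number of genes called was 10 in place of 18, in a setting chosen after seeing the data.

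In the test of day 20 against day 5, 4 of 54 guidance genes were called. Epha3, Sema5a and Ntn1 were higher (5.56%) and Plxnb2 was lower (1.85%). Calls were also few over all genes, at 3.05% higher and 2.25% lower (5.3% in all). The change was 0.62 (adjusted p = 0.0456) for Ntn1 and -0.60 (adjusted p = 0.0442) for Plxnb2. Ntn1 lost its call without control C, D or E, any single day 5 array, or day 20 B, C, D or E (adjusted p = 0.0516 to 0.144), and Plxnb2 without control A, C, D or E, day 5 C, D or E, day 20 A, C, D or E or day 60 A or D (adjusted p = 0.0503 to 0.134).

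The list of co-receptors and related ligands, like that of effectors below, was chosen for this pathway with earlier results of these data known. It had 19 of 20 genes tested. On day 5, 2 of them were called higher (10.5%, Nrp1 and Dcbld2) and 7 lower (36.8%), against 16.8% and 17.5% of all genes. On day 20, 4 were higher (21.1%) and 3 lower (15.8%), near the 15.6% and 14.5% of all genes. Neo1, the neogenin receptor of netrins and repulsive guidance molecules, averaged 2776 ± 480.0 on day 5 and 5646 ± 906 on day 20, against 7661 ± 712 in control. Its changes were -1.44 (adjusted p = 1.23e-06) and -0.44 (adjusted p = 0.0276). The neogenin ligands Rgma and Rgmb were also called lower on day 5, with changes of -0.78 and -1.01 (adjusted p = 0.00777 and 0.000971), as were Ntng1, Draxin, Dag1 and Gpc1. On day 60, Nrp2 was the one gene of the list called.

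The list of intracellular effectors had 42 of 46 genes tested, of which 15 were called higher (35.7%) and 5 lower (11.9%) on day 5, against 16.8% and 17.5% of all genes. On day 20, 17 were higher (40.5%) and 4 lower (9.52%), against 15.6% and 14.5%, and on day 60 none was called. The actin regulator Vasp averaged 5030.4 ± 1146 on day 5 and 4807 ± 1019 on day 20, against 1887 ± 347 in control, and rose 2.56-fold and 2.46-fold (adjusted p = 6.51e-05 and 6.24e-05). Limk1, the kinase that phosphorylates cofilin, changed by 1.22 and 0.91, its substrate Cfl1 by 1.13 and 0.92, and the Slit-Robo GTPase activator Srgap2 by 1.21 and 1.08, all called. The flavoenzymes downstream of plexins went in opposite directions: Mical1 changed by 1.06 and 1.39, whereas Mical2 changed by -0.88 and -0.57 and Mical3 by -0.99 and -0.70, each of them called on both days. Many of these effectors act in every cell type, and whether their changes follow from guidance signalling was not tested.

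Several probe sets at or above the minimum signal were present for 23 guidance genes, 51 probe sets in all, each tested as its own row among 23113. On day 5, 4 of the 23 genes had all probe sets called one way, 9 had some called and 10 none, and on day 20 the counts were 5, 8 and 10. They were 4, 9 and 10 for day 60 against day 20, and 0, 12 and 11 for day 60 against day 5. In none of the 6 comparisons did a gene have probe sets called in opposite directions. The same counts were not made over all genes, so they show nothing particular to guidance genes. Efnb2 and Unc5b had all probe sets called higher on both days, and Epha3 and Sema5a on day 20, while the changes of Sema6d on day 5, Sema3c on day 5 and Slit2 on day 20 were called for the brightest probe set and for no other.

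**Figure D5:**
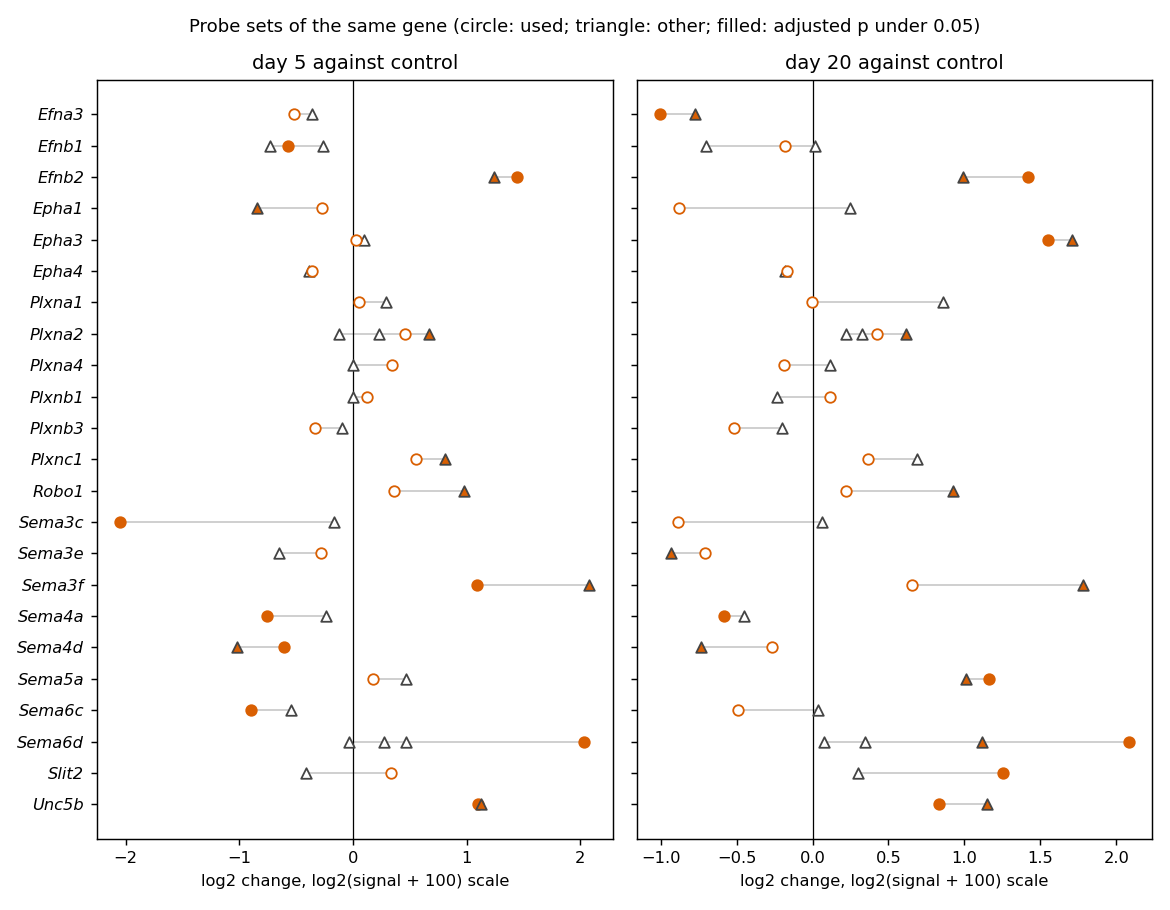
Log2 change of every probe set of the 23 guidance genes with more than 1 tested probe set, on day 5 (left) and day 20 (right) against control; circles are the probe set of highest mean, triangles the others, and filled symbols an adjusted p under 0.05 when each probe set is tested on its own. The Sema6d probe sets span -0.04 to 2.03 on day 5, whereas both Unc5b probe sets lie near 1.10. The Sema3f circle on day 20 is open because its adjusted p was 0.0524 over probe sets.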

How the data were processed

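The measurement was total RNA of mouse flank on 20 Affymetrix Mouse Genome 430 2.0 arrays, 19 of them assigned to a group by their labels. The values are MAS5 signal intensities that the authors deposited, background-corrected and scaled to 1500 per the labels, made with GCOS 1.3 per the submitters' processing notes. Depth is not defined for arrays, and their number limits the precision. Probe sets were named from the platform annotation: of 45101, 34958 had 1 symbol, 932 several and 9211 none. Per gene the probe set of highest mean signal was kept, and 13595 of 18194 genes had a mean of at least 300 over the assigned arrays. The values of log2(signal + 100) were fitted over all 4 groups with limma 3.58.1 in R 4.3.3 (lmFit, and eBayes with a trend), with Benjamini-Hochberg adjustment over the 13595 genes in each of 6 comparisons and a call at an adjusted p under 0.05. The procedure was tested on simulated data. No 2 arrays held identical values, and arrays of a group correlated at 0.903 to 0.976. The comparisons with control share the control arrays, so their changes are not independent. Whether array letters pair the samples is not known. The letters were used as a block only among the alternatives, which also covered the pseudocount, the minimum signal, scaling, array weights, the samples in the fit, the mean over probe sets, the Actb ratio and each array left out in turn. The mean over probe sets took every probe set with that gene as its 1 symbol, also those below the minimum signal. Genes are named as fixed ligand and receptor pairs and as the 6 largest called rises and falls of each comparison with control; others are named as members of a family count. The genes and lists were chosen with earlier results of these data known. Promoter windows come from RefSeq on GRCm38.p6, and a motif search covered both strands.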

Additional observations from a re-analysis of the deposited data

Results flagged for a closer look

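In 6 of 124 groups of arrays examined for the named genes, 1 array lay far from the rest of its group by Dixon's ratio at the 95% level, where chance gives about 1 in 20. Day 5 C was low for Ntn1 (1045), day 5 E was high for Efna3 (1219), day 20 E was high for Sema3g (3144), day 60 B was high for Unc5b (5996) and for Sema4g (1337), and control B was low for Sema6c (942).

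The change against control differed between times for the following named genes, which the tests of one time against another called directly in limma at an adjusted p under 0.05. Between day 20 and day 5 the log2 difference was 1.53 for Epha3 and 0.62 for Ntn1, and the Ntn1 call was lost without control C, D or E, any single day 5 array or day 20 B, C, D or E (adjusted p = 0.0516 to 0.144). Between day 60 and day 20 it was negative for Sema6d (-1.85), Plxnd1 (-1.62), Robo4 (-1.54), Epha3 (-1.34), Sema7a (-1.13) and Slit2 (-1.06). In the same comparison it was positive for Efna3 (1.36), Sema3c (1.31), Sema3e (1.28), Sema3b (1.11), Sema4g (0.81), Sema4a (0.74), Efna5 (0.68) and Ntn1 (0.66). Between day 60 and day 5 it was negative for Sema6d (-1.79), Plxnd1 (-1.71), Robo4 (-1.63), Sema7a (-1.17) and Efna1 (-0.77). It was positive there for Sema3c (2.47), Sema3b (1.72), Efna2 (1.29), Ntn1 (1.28), Sema4a (0.91), Efna3 (0.87), Sema6c (0.71), Ntn4 (0.54) and Sema4d (0.44).

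On the array whose labels conflict, 17 of the 54 guidance genes read above every control array, 14 read below every control array and 23 within the control range. The same count was not made over all tested genes, so these numbers show nothing particular to guidance genes and do not place the array in a group.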

How the results depend on the processing

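No called direction of a named gene reversed under any alternative run. The counts of guidance genes called higher on day 5 (12), lower on day 5 (9), higher on day 20 (15) and changed between day 60 and day 20 (17) stayed within 1.5 times under all alternatives run, at 10 to 15, 7 to 11, 11 to 16 and 15 to 20. The 4 genes called lower on day 20 were 8 with array weights, 2 with the array letter as a replicate block and 2 to 6 with 1 array left out. Higher on day 60 against control, 0 became 2 without control B (Efnb2 and Unc5b), a range of 0 to 2. The 4 genes that differed between day 20 and day 5 were 2 with no minimum signal, 2 without a trend in eBayes, 11 with array weights and 2 to 6 with 1 array left out; they were 2 without control C, D or E, day 5 C, D or E, or day 20 D or E. The 18 that differed between day 60 and day 5 were 10 with day 60 A, B and D left out together, an alternative chosen after seeing the data, and 14 to 20 with 1 array left out. Among 34 called results of named genes against control, 36 of 646 omissions of 1 array and 15 of 436 other settings ended a call, and among 59 that were not called, 18 omissions and 15 other settings gave one. Between times, among 39 called results, 59 of 741 omissions and 57 of 500 other settings ended a call, and among 72 not called, 19 omissions and 29 other settings gave one. Against control, averaging all probe sets ended the calls of Sema4a on day 5 and day 20 (adjusted p = 0.156 and 0.126). It also ended those of Efna1 and Efna5 on day 20 (0.0571 and 0.0663). The Actb ratio as a covariate ended those of Efnb1 and Ephb4 on day 5 and Sema4a and Sema4g on day 20. Between times the covariate ended those of Ntn1 and Plxnb2 (day 60 against day 20) and of Sema6c, Efnb1 and Ntn4 (day 60 against day 5). The cause was not tested. The replicate block ended the calls of Sema3f, Sema4a and Sema4g on day 20 (0.0661, 0.0567 and 0.0508) and gave 1 for Ephb4 (0.0297). Same-letter arrays had a median correlation of 0.0239 (−0.275 to 0.348) in their deviations from the group means, with 11 of 27 pairs over 0.1. For arrays of other letters the median was -0.030 (-0.452 to 0.404), with 32 of 108 pairs over 0.1. These correlations cannot settle whether the letters pair the arrays. Over all genes, day 60 against control called 50 higher and 104 lower, against 0 and 2 with only the groups compared, 7 and 56 with probe sets averaged, 147 and 149 with array weights, 30 and 107 with 75th percentile centring, 28 higher with no minimum, 67 lower with a minimum of 1000, 32 higher with the block and 10 and 99 without day 60 A, B and D. Day 20 against day 5 called 415 higher and 306 lower, against 934 and 819 with array weights, 269 higher with probe sets averaged and 493 lower with only the groups compared. Without day 60 A, B and D, day 60 called 617 higher and 1034 lower against day 20 (1489 and 1521 with them), and 861 higher against day 5 (1654 with them).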

Other observations

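The array with a day 5 title and a day 0 control source name read 19015 for Sema6d, 6636 for Plxnd1, 2234 for Robo4, 27065 for Efnb2, 3847 for Sema3c, 1315 for Ntn1 and 1087 for Epha3.

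Among the guidance genes below the minimum signal, Epha7 averaged 201 ± 44.5 on day 5, 283 ± 38.2 on day 20 and 225 ± 103 on day 60, against 448 ± 118 in control (SD, n = 4, 5, 5 and 5), and Ephb6 averaged 125 ± 73.5, 98.8 ± 81.1 and 366 ± 94.3 on those days, against 265 ± 127 in control. Neither was tested.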
